A study of Mus musculus with 6 samples.

Results

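The elongases and desaturases of fatty acid chains were read in mouse liver at 9 genes: Elovl1, Elovl2, Elovl3, Elovl5, Elovl6, Fads1, Fads2, Scd1 and Scd2. They were taken by gene symbol alone, which gave 21 probe sets of the 45037 non-control probe sets on the array. LIGHT Tg mice, which carry a transgene for the tumour necrosis factor family ligand LIGHT (Tnfsf14), were compared with wild-type B6 mice (WT), 3 samples per group. All 6 samples are whole liver of mice aged 4 to 8 weeks after 2 weeks on the high-fat diet TD88137, so both groups share the diet. The titles and source names set the groups, while the free-text description of each LIGHT Tg sample calls it wild-type. No 2 arrays held the same values, with Pearson r of log2 signals between 0.875 and 0.956. No strain is named for the LIGHT Tg mice, and the promoter of the transgene is likewise unstated in the labels, so genetic background cannot be told apart from the transgene. The labels do not state that the samples are separate animals, so a p-value covers the spread among the 6 samples, which may be technical.

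Fatty acid synthase delivers mainly saturated palmitate, and the enzymes described here lengthen such chains and put double bonds into them. In the endoplasmic reticulum an ELOVL enzyme performs the first and rate-setting step of each elongation cycle, which adds a pair of carbons. SCD enzymes place the first double bond, at the delta-9 position, and make monounsaturated oleate and palmitoleate. FADS2 (delta-6) and FADS1 (delta-5) add double bonds to the dietary essential fatty acids, and with ELOVL5 and ELOVL2 they make arachidonic and docosahexaenoic acid. In liver many of these genes are known targets of SREBP-1c, LXR and PPARalpha.

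Values are MAS5 signals on a linear scale, 1 per probe set and array, and each difference is a log2 value, LIGHT Tg minus WT, with its standard error, from 1 limma fit over all probe sets above the median level (5% FDR). Trimmed mean signals lay between 489 and 503 on the 6 arrays. A signal also depends on the probes of its probe set, so differences between groups are taken within a probe set, and a high or low signal describes a probe set, not how much of 1 gene there is against another. LIGHT Tg 1 and WT 1, titled 77 and 78, stood apart from the 4 arrays titled 30 to 35: the signal at the 5' control for 18S ribosomal RNA was 196 and 243 on the pair, against 17443 to 17948 on the others. The Xist signal was 407 and 444, against 7993 to 9714, and that of Y-linked Eif2s3y 1272 and 1037, against 2.10 to 2.82, as in males for the pair and in females for the rest. Both genotypes have an array in the pair, so results are also given with this title-number set as a block. Hepatocyte markers were at very high signals, with Albumin between 15912 and 20811 on the 6 arrays.

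Fads2, the delta-6 desaturase, was higher in LIGHT Tg livers and was the only member with a call in the fit without the block. With the block, Fads1 and Elovl2 of the polyunsaturated branch also rose, and Elovl6 and Elovl3 of the saturated branch fell. Elovl1, Elovl5, Scd1 and Scd2 had no call in either fit. Of the 20 member probe sets above the filter, 2 rose and 0 fell at 5% FDR, both calls at Fads2, against 1.17% of all probe sets tested (0.715% higher and 0.457% lower). With the block 6 rose, at Fads2, Fads1 and Elovl2, and 3 fell, at Elovl6 and Elovl3, against 6.47% of all probe sets (3.26% higher and 3.21% lower). The 3 LIGHT Tg signals did not overlap the 3 WT signals at 10 of the 20, 7 with LIGHT Tg above and 3 with LIGHT Tg below, a pattern found at 17.4% of all probe sets tested (8.17% above and 9.19% below). Differences were above 0 at 12 of the 20, against 48.1% of all, and 11 had an unadjusted p below 0.05, against 11%. The remaining member probe set, of Elovl1, was dimmer than the filter level of 167, with signals between 52.9 and 90.4, and was not tested. In whole liver, fewer cells of a type and less RNA per cell cannot be told apart.

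**Figure D1:**
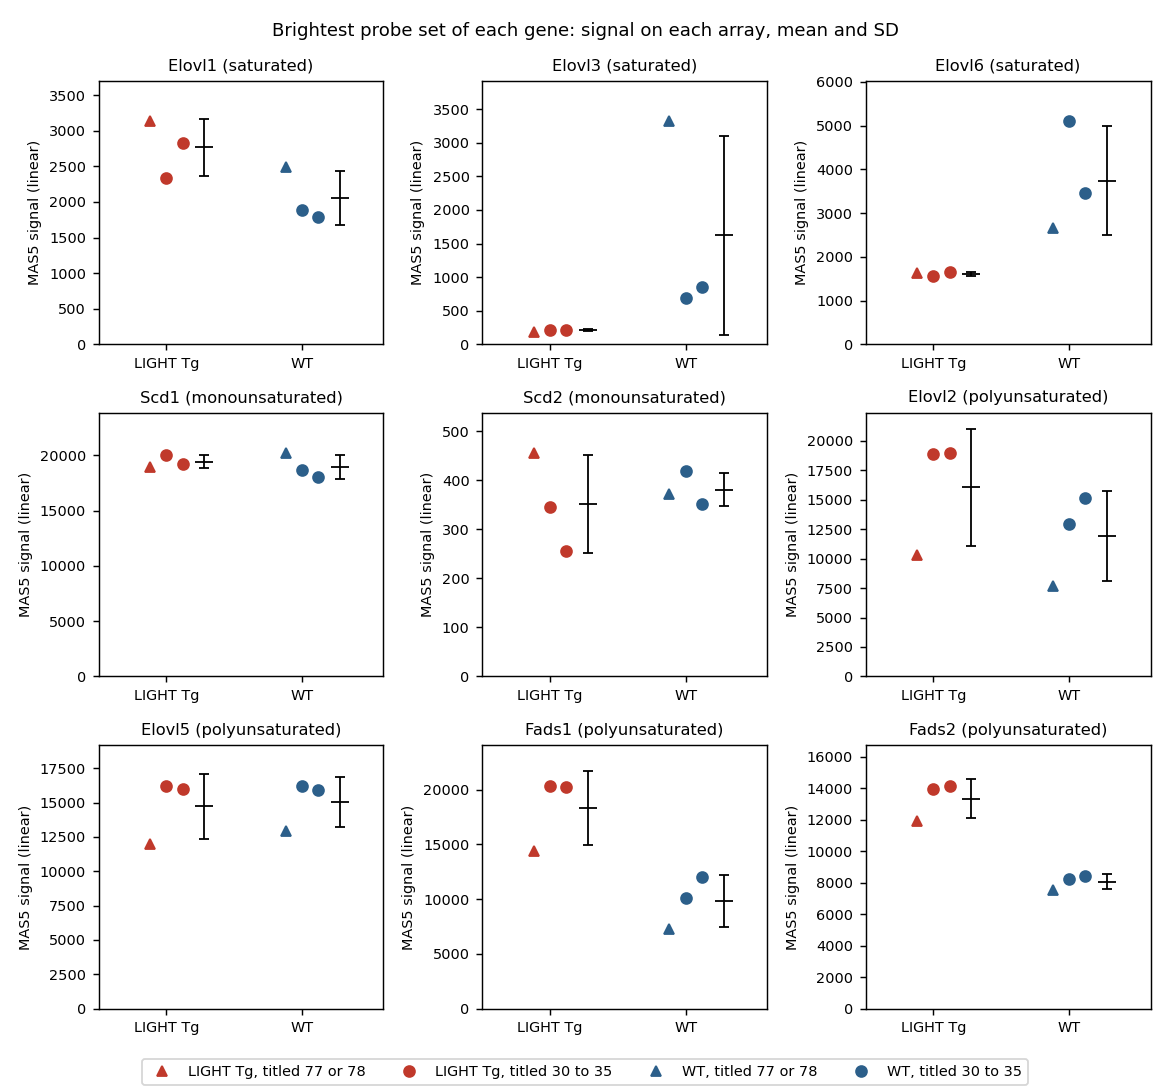
MAS5 signal (linear, from 0) of the brightest probe set of each of the 9 genes on every array, LIGHT Tg in red left of WT in blue, with triangles for the arrays titled 77 and 78 and circles for those titled 30 to 35; black bars are mean and SD of 3 arrays. At Fads1 and Fads2 all LIGHT Tg signals lie above all WT signals, at Elovl3 and Elovl6 all lie below, and at the other 5 genes the groups overlap.

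RefSeq start-site sequences were at hand for 5 of the 9 genes, in 7 windows of 300 bases on GRCm38.p6 that run from 250 bases before to 50 after a start. Those of Fads2, which rose, of Elovl6, which was lower at its brighter probe sets, and of Elovl5, which had no call, are shown so that the promoters of a higher gene, a lower gene and one without a call can be read side by side. Capitals mark matches, on either strand, to the E-box CACGTG (bound by SREBP-1 and ChREBP with its partner), the CCAAT box (NF-Y), the GC box GGGCGG (Sp1), the sterol regulatory element TCACNCCAC, the nuclear receptor direct repeats DR1 and DR4 (AGGTCA repeated after 1 or 4 bases), and the TATA box TATAAA.
Fads2 (chr19:10101454-10101753, minus strand): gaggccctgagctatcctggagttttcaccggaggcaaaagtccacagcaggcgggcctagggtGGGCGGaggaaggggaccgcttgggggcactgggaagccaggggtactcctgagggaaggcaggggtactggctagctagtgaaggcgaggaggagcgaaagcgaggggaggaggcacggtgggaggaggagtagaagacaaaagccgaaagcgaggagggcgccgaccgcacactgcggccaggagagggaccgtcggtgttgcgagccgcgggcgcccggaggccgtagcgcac
Elovl6 (chr3:129532136-129532435, plus strand): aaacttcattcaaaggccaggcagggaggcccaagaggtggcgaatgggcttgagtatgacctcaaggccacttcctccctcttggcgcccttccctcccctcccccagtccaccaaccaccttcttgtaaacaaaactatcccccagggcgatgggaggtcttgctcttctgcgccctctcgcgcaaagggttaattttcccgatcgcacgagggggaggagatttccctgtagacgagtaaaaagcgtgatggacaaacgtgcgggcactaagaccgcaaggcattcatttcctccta
Elovl5 (chr9:77917115-77917414, plus strand): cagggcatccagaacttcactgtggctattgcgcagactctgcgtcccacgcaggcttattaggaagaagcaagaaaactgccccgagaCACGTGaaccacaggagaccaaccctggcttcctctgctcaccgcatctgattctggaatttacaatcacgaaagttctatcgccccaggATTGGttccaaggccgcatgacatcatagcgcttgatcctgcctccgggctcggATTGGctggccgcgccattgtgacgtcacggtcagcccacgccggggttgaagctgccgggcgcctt
The Fads2 window held 1 GC box, found in 35.7% of all 32851 such windows, and the Elovl6 window held none of the 7 motifs. The Elovl5 window held 1 E-box and 2 CCAAT boxes, found in 7.15% and 37.4% of all windows. No member window held the sterol regulatory element (1.24% of all windows), DR1 (0.0396%), DR4 (0.0152%) or the TATA box (13.6%), which says only that these letters are not in these windows. GC content was 67% in the Fads2 window, 55.7% in that of Elovl6 and 57.7% in that of Elovl5. The motifs overlap in no shown window.

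Fads2 encodes the delta-6 desaturase, which takes linoleic and alpha-linolenic acid into the polyunsaturated pathway. Its brightest probe set, 1419031_at, gave signals of 11879, 13947 and 14156 in LIGHT Tg 1 to 3, against 7508, 8246 and 8392 in WT 1 to 3. Every LIGHT Tg signal was above every WT signal, on the pair titled 77 and 78 as well as on the other arrays. On the log2 scale Fads2 rose by 0.72 ± 0.114 (SE, n = 3 per group), 1.65-fold (limma, adjusted p = 0.0376, and 0.00209 with the block). The probe set 1449325_at, also at high signals, gave signals of 12309, 13096 and 12419 in LIGHT Tg 1 to 3, against 7038, 6791 and 7754 in WT 1 to 3. It rose by 0.81 ± 0.103 (SE, n = 3 per group, adjusted p = 0.0195, and 0.00269 with the block), so both bright probe sets gave the same direction and nearly the same size. The x-suffixed probe set 1443838_x_at, whose probes may also bind other transcripts, gave signals of 1589, 2503 and 2684 in LIGHT Tg 1 to 3, against 575, 381 and 895 in WT 1 to 3. Here the groups did not overlap either, and the log2 difference was 1.92 ± 0.347 (SE, n = 3 per group, adjusted p = 0.0582, and 0.0150 with the block). With 1 array left out, the adjusted p at 1419031_at was 0.0374 without LIGHT Tg 1, 0.151 without LIGHT Tg 2, 0.199 without LIGHT Tg 3, 0.0617 without WT 1, 0.141 without WT 2 and 0.136 without WT 3, with differences between 0.68 and 0.81. At 1449325_at it was 0.0411 without LIGHT Tg 1 and 0.0318 without WT 1, and between 0.0672 and 0.114 without LIGHT Tg 2, LIGHT Tg 3, WT 2 or WT 3.

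Fads1, the delta-5 desaturase that completes arachidonic and eicosapentaenoic acid, had the same direction. Its brightest probe set, 1423680_at, gave signals of 14378, 20360.3 and 20208 in LIGHT Tg 1 to 3, against 7287, 10130.3 and 12003 in WT 1 to 3. The groups did not overlap, and in each group the array titled 77 or 78 was the lowest. The log2 difference was 0.91 ± 0.216 (SE, n = 3 per group), 1.88-fold, with adjusted p = 0.130 without the block; Fads1 rose with the block (adjusted p = 0.00200). Its difference was 0.98 within the pair, close to 0.88 among the other 4 arrays. At the other Fads1 probe set, 1440444_at, the signals were 958, 829 and 919 in LIGHT Tg 1 to 3, against 599, 586 and 639.7 in WT 1 to 3. These groups did not overlap, and the difference of 0.57 ± 0.159 (SE, n = 3 per group) passed with the block (adjusted p = 0.0463) and not without it (0.203).

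The elongases of this branch are Elovl2 and Elovl5. Elovl2, which extends long polyunsaturated chains on the way to docosahexaenoic acid, gave signals of 10314, 18900.5 and 18928 in LIGHT Tg 1 to 3, against 7686, 12899 and 15165 in WT 1 to 3. Over all arrays the groups overlapped, while in each title-number set LIGHT Tg was above WT, by 0.42 in the pair and by 0.44 in the others. The log2 difference of 0.43 ± 0.319 (SE, n = 3 per group) had adjusted p = 0.750 without the block, and with it Elovl2 rose (adjusted p = 0.0209). Without the block, it was 0.14 with WT 1 left out and 0.72 with LIGHT Tg 1 left out. Elovl5, which extends shorter polyunsaturated chains between the desaturase steps, gave signals of 12023, 16186 and 16019.5 in LIGHT Tg 1 to 3, against 12970.2, 16242 and 15935 in WT 1 to 3. Its groups overlapped almost completely, and its probe sets had log2 differences of -0.036 ± 0.154 and -0.091 ± 0.103 (adjusted p = 0.984 and 0.875, 0.777 and 0.553 with the block). The second of them, 1437211_x_at, has the x suffix, so its probes may also bind other transcripts. Of 8 tested probe sets of the branch, 6 had positive differences and 2, both of Elovl5, negative ones. Their median was 0.65, and 0.58 at the brightest probe set of each gene, beside -0.013 over all probe sets tested.

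**Figure D2:**
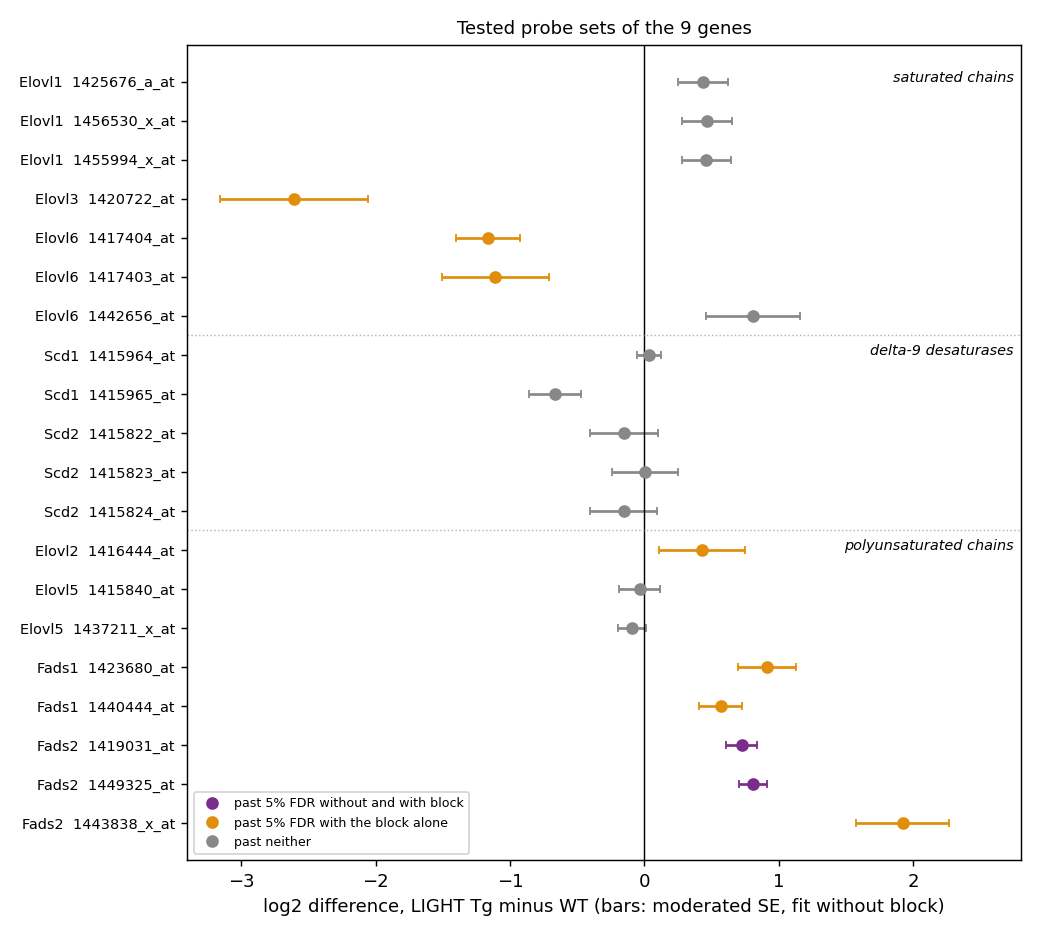
Log2 difference, LIGHT Tg minus WT, of the 20 tested member probe sets with the moderated standard error of the fit without the block, grouped by branch. The 2 purple points, both Fads2, passed 5% FDR without and with the block; the 7 orange points, of Fads1, Fads2, Elovl2, Elovl3 and Elovl6, passed with the block alone.

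In the branch that lengthens saturated chains and their monounsaturated counterparts, Elovl3 and Elovl6 had lower and Elovl1 higher signals in LIGHT Tg, and only Elovl3 and Elovl6 had a call, with the block. Elovl3, which makes very long saturated and monounsaturated chains and in mouse liver is known as a male-biased gene, gave signals of 189, 207 and 219 in LIGHT Tg 1 to 3, against 3323, 686.3 and 853 in WT 1 to 3. The LIGHT Tg signals were all low and close together, while WT 1, the WT array with the male pattern, was far above WT 2 and WT 3. The log2 difference was -2.61 ± 0.553 (SE, n = 3 per group), 6.09-fold lower, which did not pass without the block (adjusted p = 0.0959); with it Elovl3 fell (adjusted p = 0.0155). Within the pair it was -4.13, among the other 4 arrays -1.84, and without WT 1 it fell by 1.90 (adjusted p = 0.0170). With any other single array left out, Elovl3 did not pass in limma (adjusted p between 0.132 and 0.315). The difference between the sets, the interaction of genotype and set, was -2.29 ± 0.297 (limma, adjusted p = 0.0775, unadjusted 2.58e-04), with 1 array per genotype in the pair.

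Elovl6, which extends palmitate and palmitoleate and so bears on the balance between palmitate and stearate, was lower at its brighter probe sets. At 1417404_at the signals were 1623, 1558 and 1654 in LIGHT Tg 1 to 3, against 2660, 5100.1 and 3448 in WT 1 to 3. The groups did not overlap, and the LIGHT Tg signals spanned a far narrower range than the WT signals. Its difference was -1.16 ± 0.237 (SE, n = 3 per group), 2.24-fold lower (adjusted p = 0.0857), and with the block it fell (adjusted p = 0.0169). At 1417403_at the signals were 717, 800.3 and 1004 in LIGHT Tg 1 to 3, against 933, 2787 and 2219.7 in WT 1 to 3. WT 1 lay within the LIGHT Tg range there, and the difference of -1.11 ± 0.397 (SE, n = 3 per group) again passed with the block (adjusted p = 0.0417) and not without it (0.347). Without WT 1, without the block, both probe sets fell, by 1.38 and by 1.58 (adjusted p = 0.0318 and 0.0271). With any other single array left out, neither passed in limma. The adjusted p was then between 0.158 and 0.303 at 1417404_at and between 0.473 and 0.702 at 1417403_at. The third Elovl6 probe set, 1442656_at, had a difference of the other sign, with signals of 328, 251 and 407 in LIGHT Tg 1 to 3, against 118, 209 and 253 in WT 1 to 3. Its groups overlapped, and the difference of 0.81 ± 0.350 (SE, n = 3 per group) did not pass (adjusted p = 0.464, and 0.157 with the block) and was 0.49 without WT 1. The stretch of transcript behind each probe set is not stated here, so the lower signal holds for the brighter probe sets of Elovl6 and not for all of them.

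Elovl1, the broadly expressed elongase of very long saturated and monounsaturated chains used in sphingolipids, gave signals of 3135, 2341 and 2833 in LIGHT Tg 1 to 3, against 2489.8, 1883 and 1793 in WT 1 to 3 at its brightest probe set. LIGHT Tg 2 lay below WT 1 here, and the difference was 0.44 ± 0.188 (SE, n = 3 per group, adjusted p = 0.464, and 0.0745 with the block). At the other tested probe sets, 1456530_x_at and 1455994_x_at, all LIGHT Tg signals were above all WT signals, with differences of 0.47 ± 0.184 and 0.46 ± 0.185 (adjusted p = 0.403 and 0.413, and 0.105 and 0.124 with the block). The 3 probe sets gave nearly the same size, and none passed in either fit. Those with the x suffix may also bind other transcripts. Of all settings run, only array weights gave a call, at 1425676_a_at (0.54, adjusted p = 0.0349). Over the branch 4 of 7 tested probe sets had positive and 3 negative differences. The positive ones lay at or below 0.81, while the negative ones reached -2.61. The branch median was 0.44 over these probe sets and -1.16 at the brightest probe set of each gene.

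The delta-9 desaturases had no call in either fit. Scd1, the main hepatic stearoyl-CoA desaturase, was among the brightest probe sets of the array, and its signals at 1415964_at were 18919, 20045 and 19222 in LIGHT Tg 1 to 3, against 20164, 18683 and 18045 in WT 1 to 3. The groups overlapped and lay within a narrow range, with a difference of 0.034 ± 0.0871 (SE, n = 3 per group, adjusted p = 0.966, and 0.807 with the block). The mean level of this probe set was at percentile 99.9 of all probe sets, and whether signals so high still follow the transcript was not tested. At 1415965_at the signals were 12138, 10964 and 8029 in LIGHT Tg 1 to 3, against 16277, 19428 and 13449 in WT 1 to 3. All LIGHT Tg signals were below all WT signals at this probe set, LIGHT Tg 3 lowest of all, and the difference was -0.66 ± 0.195 (SE, n = 3 per group, adjusted p = 0.224, and 0.0714 with the block). The 2 Scd1 probe sets therefore disagree, and of all settings run the second passed with array weights only (-0.69, adjusted p = 0.0453).

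Scd2 is the isoform known for its part in development and in brain. Signals at its brightest probe set, 1415822_at, were 454, 345 and 255 in LIGHT Tg 1 to 3, against 372, 418 and 351 in WT 1 to 3. The ranges overlapped, and the differences at its 3 probe sets lay between -0.15 and 0.00465 with standard errors of 0.247 to 0.254 (adjusted p between 0.931 and 0.998). Of the 5 delta-9 probe sets, 1 had an unadjusted p below 0.05, 1415965_at of Scd1, and 1 with the block, against 22.6% of all probe sets.

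The genotype differences were set side by side in the pair and in the other 4 arrays. They had a median over the 20 member probe sets of 0.31 for the pair and 0.20 for the arrays titled 30 to 35, beside -0.01 and -0.019 over all probe sets tested. All 5 Fads1 and Fads2 probe sets were higher in LIGHT Tg in both sets, and Elovl3 and the 2 brighter Elovl6 probe sets were lower in both. None of the members passed the limma interaction of genotype and set at 5% FDR, and 2 of 20 had an unadjusted p below 0.05, Elovl3 and 1417403_at of Elovl6, against 0.0666% and 11% of all probe sets. Between the sets, with genotype in the fit, 4 of 20 member probe sets differed (titled 77 and 78 minus 30 to 35). All were lower on the pair. Elovl2 had -0.87 ± 0.0816, 1417403_at of Elovl6 -0.87 ± 0.256, 1423680_at of Fads1 -0.55 ± 0.0856 and 1415840_at of Elovl5 -0.37 ± 0.0638. The other probe sets of Fads1 and Elovl5 had 0.051 ± 0.135 and -0.059 ± 0.0851, with no call. As 27.4% of all probe sets, 15.7% lower on the pair, differed between the sets, the share of 4 in 20 is no result about the members. Sex pattern, 18S control signal and title number cannot be told apart in it. In the arrays titled 30 to 35 alone, an alternative chosen after the data were seen, 4 member probe sets rose, the 3 of Fads2 and 1423680_at of Fads1, and 3 fell, those of Elovl3 and Elovl6, against 4.25% of all probe sets (2.22% higher and 2.02% lower).

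**Figure D3:**
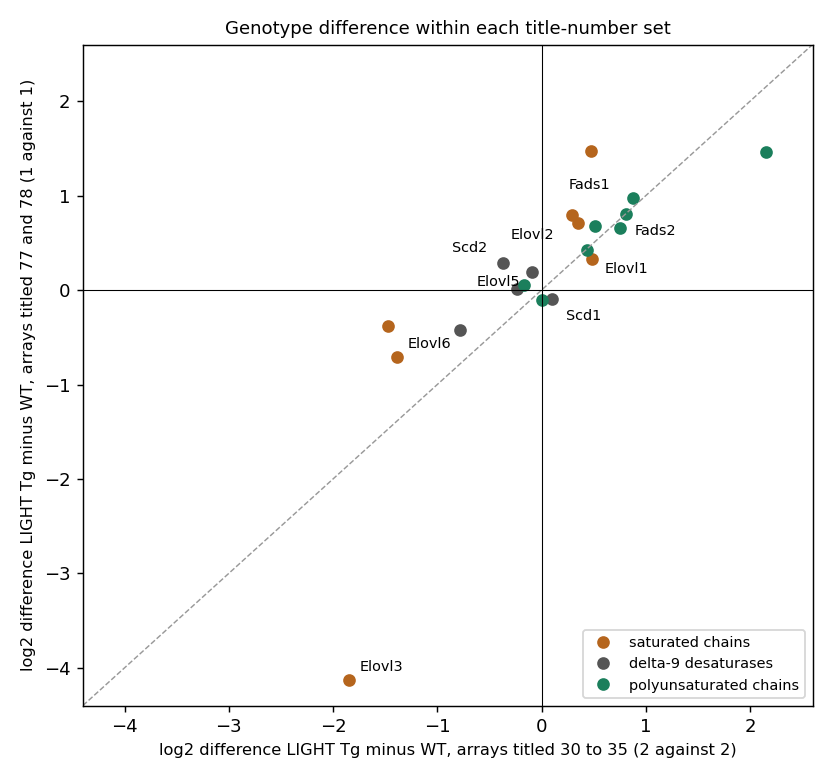
Log2 difference, LIGHT Tg minus WT, of each tested member probe set in the arrays titled 77 and 78 (vertical, 1 against 1) and in those titled 30 to 35 (horizontal, 2 against 2); names mark the brightest probe set of each gene and the dashed line is equality. Fads1 and Fads2 lie near the line above 0, Elovl6 lies below 0 in both sets, and Elovl3 lies farthest below, at -4.13 and -1.84.

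Markers of liver cell types were read beside these results, and the signals of the brightest probe set per gene were summed on each array. The genes with the highest signals weigh most in such a sum, so single members are given beside some of the sums. None of 8 hepatocyte markers passed in limma, with 0 at an unadjusted p below 0.05. Their summed signal was 157050 to 165258 in LIGHT Tg and 158782 to 165248 in WT. Their mean levels were at percentiles 99.7 to 99.998, and whether signals so high still follow the transcript was not tested. Of 6 endothelial markers 2 rose, against 0.715% of all probe sets, Vwf by 2.39 ± 0.229 (adjusted p = 0.00678) and Lyve1 by 1.24 ± 0.200 (0.0393). Stab2 rose with the block alone (0.75 ± 0.176, adjusted p = 0.125, and 0.0127 with the block), where 3.26% of all probe sets rose. The others had 0.36 ± 0.175 at Clec4g, 0.19 ± 0.213 at Pecam1 and -0.088 ± 0.235 at Kdr, with no call, and the endothelial sum was 9619 to 12325 in LIGHT Tg and 6159 to 7273 in WT, with no overlap. Of the B cell markers Ighm alone rose, by 3.62 ± 0.208 at its brightest probe set (adjusted p = 8.21e-04). Over the 6 tested Ighm probe sets the differences ran from -0.39 to 4.84, and 2 of the 6 rose. Ms4a1, the other marker tested, had -0.19 ± 0.228 (adjusted p = 0.891). Cd79a and Cd79b were below the filter, and Ighm gave most of the LIGHT Tg side of the B cell sum, 4484 to 6428 in LIGHT Tg and 857 to 1025 in WT. Of the pancreas acinar markers Cela1 had -0.59 ± 0.185 (adjusted p = 0.261, and 0.0304 with the block), while Cela2a had 0.51 ± 0.340 with all LIGHT Tg above all WT (adjusted p = 0.703). Prss2 and Cpa1 were below the filter, and the acinar sum of 1111 to 1394 in LIGHT Tg and 1828 to 1931 in WT was mostly Cela1. The 5 Kupffer cell markers summed to 12942 to 22154 in LIGHT Tg and 18894 to 22566 in WT, the 5 stellate cell markers to 11584 to 12545 in LIGHT Tg and 11047 to 15640.2 in WT, the 4 bile duct markers to 414 to 3943 in LIGHT Tg and 733 to 6224 in WT and the 3 T cell markers to 660.4 to 775 in LIGHT Tg and 682 to 731 in WT, all overlapping. Krt7, Krt19 and Sox9 of the bile duct list and Cd3e and Cd3g of the T cell list were below the filter. The bile duct sum was mostly Epcam, at 3598 and 5846 on the pair titled 77 and 78, against 219 to 756 on the others. No tested marker in the Kupffer cell, stellate cell, bile duct and T cell lists passed without the block. There 1 of 12 had an unadjusted p below 0.05, against 11% of all probe sets, so this share is no result about the markers. That was the stellate marker Lrat, with -1.25 ± 0.436 (adjusted p = 0.328, and 0.0619 with the block), which fell in the arrays titled 30 to 35 alone (-1.70, adjusted p = 0.0256). The differences of all 5 stellate markers were negative at their brightest probe sets, where 48.1% of all probe sets were above 0. Those of Dcn and Col1a1 lay near 0 (-0.0088 ± 0.158 and -0.068 ± 0.518), and another Col1a1 probe set had 0.52. The 4 adipocyte markers summed to 1094 to 2416 in LIGHT Tg and 1071 to 2106 in WT, with Adipoq and Lep below the filter, and the 4 skin and sebaceous markers to at most 1017. The part of Vwf, Lyve1, Stab2, Ighm, Cela1 and Lrat, or of the cells they mark, in the elongase and desaturase results was not tested.

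Genes around the elongases and desaturases were taken from 6 lists, each gene at its brightest probe set. None of the tested genes in any of the 6 lists passed without the block, where 11 of 45 had an unadjusted p below 0.05, against 11% of all probe sets. With the block 6 of 45 passed, against 6.47% of all probe sets. List medians below stand beside -0.013 over all probe sets tested. Among 5 tested other elongases and desaturases 1 rose and 0 fell with the block at their brightest probe sets (median -0.34). Degs1, the dihydroceramide desaturase, had 0.70 ± 0.168 with the groups apart (adjusted p = 0.133, and 0.0205 with the block), and its other probe set 0.74. Fads6, a desaturase family member, had -0.53 ± 0.280 at its brightest probe set, while its probe set 1436355_at had -0.83 ± 0.249 with all LIGHT Tg below all WT (adjusted p = 0.238) and fell with the block (0.0188). The elongase Elovl7 had -0.39 ± 0.363 and Scd3 -0.34 ± 0.322. Elovl4 and Degs2 were below the filter, and Scd4 was not analysed here. Among 6 genes of the other steps of the elongation cycle 0 rose and 0 fell with the block (3 at an unadjusted p below 0.05 with the block, against 22.6% of all probe sets, median -0.15). The hydroxyacyl-CoA dehydratase Hacd2 had -0.51 ± 0.172 and Hacd3 -0.27 ± 0.142, the ketoacyl-CoA reductase Hsd17b12 -0.20 ± 0.149 and the enoyl-CoA reductase Tecr 0.25 ± 0.131.

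Electrons reach the desaturases through cytochrome b5 and its reductase. Of 5 such genes 0 rose and 0 fell with the block at their brightest probe sets (2 at an unadjusted p below 0.05 with the block, where 22.6% of all probe sets had one). Their median was -0.036 over the 6 arrays, but between 0.031 and 0.33 with each array left out in turn, so its sign is not settled. The reductase Cyb5r3 had 0.38 ± 0.157 at its brightest probe set (adjusted p = 0.447), while 1422185_a_at rose by 0.76 ± 0.126 (adjusted p = 0.0447) and 1425329_a_at had 0.92 ± 0.163 (adjusted p = 0.0538, and 0.00628 with the block). Cytochrome b5 itself, Cyb5a, had -0.14 ± 0.0945, and Cyb5r4 and Cyb5r1 had 0.31 ± 0.182 and -0.036 ± 0.246.

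Among 11 tested regulators, Scap, Insig1 and Insig2 included, 0 rose and 1 fell with the block (median -0.28). Of the 11, 8 were negative, where 48.1% of all probe sets were above 0. Over all alternatives the median ran from -0.46 to -0.058, the latter in the arrays titled 30 to 35 alone. Mlxipl, which encodes the glucose-responsive factor ChREBP, had -0.71 ± 0.168 with all LIGHT Tg below all WT (adjusted p = 0.131) and fell with the block (0.00973). Srebf1, the gene of SREBP-1c, had -0.81 ± 0.368 with overlapping groups (adjusted p = 0.496, and 0.224 with the block). Its signals were 4812, 4759.9 and 2021 in LIGHT Tg 1 to 3, against 6205, 8331 and 4789.7 in WT 1 to 3. LIGHT Tg 1 lay above the lowest WT signal, that of WT 3. The coactivator Ppargc1b had -2.21 ± 0.722 and the LXR and PPAR partner Rxra -0.45 ± 0.149, both without overlap and without a call (adjusted p = 0.286 and 0.290). Nr1h2 was not analysed here.

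Of 8 tested genes that use polyunsaturated products 1 rose and 1 fell with the block (median -0.12). Acsl4, the acyl-CoA synthetase with a preference for arachidonic acid, had 0.67 ± 0.276 (adjusted p = 0.438, and 0.0195 with the block). Mfsd2a, a carrier of lysophosphatidylcholine with docosahexaenoic acid, had -1.15 ± 0.281 with all LIGHT Tg below all WT (0.139, and 0.0494 with the block). The lysophosphatidate acyltransferase Agpat3 had 0.37 ± 0.142 and the peroxisomal enzyme Hsd17b4 -0.33 ± 0.154. Of 10 tested genes that use saturated, monounsaturated and very long chains 0 rose and 2 fell with the block (median -0.042). Those were Cers2, the ceramide synthase for very long chains, with -0.34 ± 0.101 (adjusted p = 0.238, and 0.0409 with the block), and Slc27a5, a bile acyl-CoA synthetase and fatty acid transporter, with -0.33 ± 0.0915 (0.202, and 0.0293 with the block). Cers6, which prefers shorter chains, had 0.69 ± 0.343 and the very long chain acyl-CoA synthetase Slc27a2 -0.29 ± 0.184, neither with a call. Cers6 had 1.64 within the pair and 0.21 among the other 4 arrays (interaction adjusted p = 0.138), and Slc27a2 -0.66 and -0.098 (0.305). Cers6 was 0.28 without WT 1, and Slc27a2 -0.074 without LIGHT Tg 1. Soat2 was not analysed here.

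**Figure D4:**
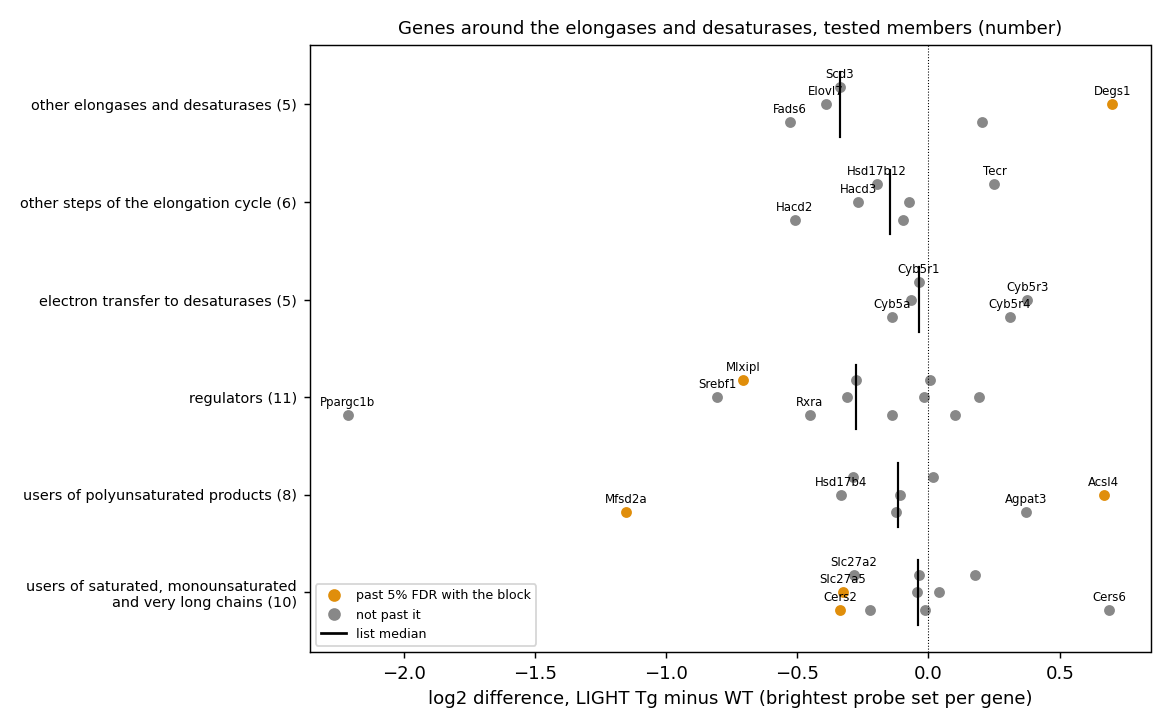
Log2 difference, LIGHT Tg minus WT, of each tested gene of the 6 lists at its brightest probe set, with up to 4 genes named per list and the list median as a black line. No point passed 5% FDR without the block; the orange points, Degs1, Mlxipl, Acsl4, Mfsd2a, Cers2 and Slc27a5, passed with it.

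Fads1, Fads2 and Fads3 are neighbours on chromosome 19 in the RefSeq gene table of GRCm38.p6, and so are Scd1 to Scd4 elsewhere on that chromosome, which also carries Elovl3. The neighbours were looked up after the values of the members were known. Fads3, whose enzymatic role in polyunsaturated synthesis is less settled, had 0.20 ± 0.345, and the nearest tested genes on either side, Fth1, Rab3il1, Fen1 and Tmem258, lay between -0.16 and 0.41 with adjusted p of 0.632 or more. Myrf, the next gene, had -1.21 ± 0.796 with overlapping groups (adjusted p = 0.701, and 0.0464 with the block). Best1 was below the filter. None of these neighbours rose in either fit, and Myrf fell with the block. Between and beside the Scd genes, Bloc1s2 had -0.35 ± 0.181 and Scd3 the value given above, with no call (adjusted p = 0.576 and 0.834).

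The genes whose log2 signals ran most like Fads2 over the 6 arrays were, at 1419031_at, Lifr, Ccdc38 and Ski (Pearson r of 0.997 to 0.998), and at 1449325_at, Ccl9, Vrk2 and Id1 (0.995 to 0.998). The 2 Fads2 probe sets shared none of these 3 genes. Each r rests on 6 arrays in 2 groups. At a lower level, an r above 0.9, there were 489 and 460 named probe sets with 1419031_at and 1449325_at. The r values describe likeness over these arrays, which share genotype, title-number set and scaling.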

How the data were processed

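Whole liver RNA in 3 LIGHT Tg and 3 WT samples was measured with Affymetrix arrays, 1 for each sample. The deposited values are linear MAS5 intensity signals that the authors computed for each probe set, per the submitters' processing notes. The MAS5 version, its scaling target and any detection calls are not stated there. Precision is limited by the number of arrays.

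The 64 control probe sets were left out of 45101. Genes were named from the array's annotation (34945 probe sets with 1 symbol, 932 with several and 9160 unnamed here), checked by gene ID against RefSeq of GRCm38.p6, which changed 0 symbols. Signals below 1 (106 values) were set to 1 before log2. Probe sets at or above the median mean log2 signal of 7.39 (22519) went into limma 3.58.1 in R 4.3.3 (lmFit, then eBayes with trend), with two-sided p-values adjusted by Benjamini-Hochberg over all of them and called at 5% FDR. The block adds the title-number set (77 and 78, or 30 to 35); the interaction adds their product. Exact permutation of 3 against 3 cannot give p below 0.100. Replicate numbers follow listing order and pair no samples.

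Named genes are all member probe sets, up to 4 tested genes per list with the largest moderated statistic, the 3 genes most like each member probe set past 5% FDR, and markers; lists use the brightest probe set per gene. Members and lists were chosen with earlier results of these data known. Alternatives were no filter, the 75th percentile, an offset of 37.5, quantile normalization, a common median, no trend, robust eBayes, array weights, the block and each array left out; the arrays titled 30 to 35 alone were added after the data were seen. The steps were tested on simulated data. Figures used matplotlib 3.10.9 (Python 3.11.15).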

Additional observations from a re-analysis of the deposited data

How the results depend on the processing

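Over all alternatives, the block and the added arrays titled 30 to 35 included, the 20 member probe sets gave 269 values with the direction and call of the report, 24 that gained a call, 12 that lost one (all of Fads2) and 11 that changed sign. The count of member probe sets past 5% FDR, 2 in the report, was 1 without a filter, 0 without the variance trend (10 at an unadjusted p below 0.05 in limma), 10 with array weights, 9 with the block, 7 in the arrays titled 30 to 35 alone, and 0 to 4 with 1 array left out (0 without LIGHT Tg 2, LIGHT Tg 3, WT 2 or WT 3, with 8 to 12 at an unadjusted p below 0.05; 4 without WT 1). Over all probe sets the count was 264 in the report, 148 without the trend, 1992 with array weights, 1457 with the block, 956 in the arrays titled 30 to 35, and 43 to 306 with 1 array left out. The count of members that differed between the sets was 4, and 2 without the trend; with 1 array left out it was 3 to 4. Signs changed only at differences near 0 with no call. With 1 array left out, Scd1 at 1415964_at ran between -0.0015 and 0.079 (lowest without WT 3), Scd2 between -0.36 and 0.061 at 1415822_at (above 0 without LIGHT Tg 3) and between -0.10 and 0.16 at 1415823_at (below 0 without LIGHT Tg 3, WT 1 or WT 3), Elovl5 at 1415840_at between -0.14 and 0.10 (above 0 without LIGHT Tg 1, WT 2 or WT 3) and Cyb5r1 between -0.19 and 0.14 (above 0 without LIGHT Tg 2, LIGHT Tg 3 or WT 1). In the arrays titled 30 to 35 Scd2 had -0.088 at 1415823_at and Elovl5 0.0013 at 1415840_at, which had 0.021 after quantile normalization. List genes with no call whose value moved by over 1.5 times with 1 array left out were Cers6 and Slc27a2 (in the report), Srebf1, Ppargc1b and Fads6 (-0.39, -1.31 and -0.32 without LIGHT Tg 3), Elovl7 and Cyb5r4 (-0.20 and 0.15 without WT 1), Cyb5r3 (0.24 without WT 2), Scd3 (-0.10 without LIGHT Tg 2), and Hsd17b12 and Tecr (-0.094 and 0.15 without LIGHT Tg 1). List medians kept their sign with each array left out except for electron transfer. With the filter at the 75th percentile, that of the other elongases and desaturases was 0.086. The causes were not tested; leaving out an array also leaves fewer samples and unequal title-number sets. No paired analysis was possible because the labels give the groups no shared replicate numbers, and the interaction could not be fitted with 1 array of the pair left out.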
